A study of Homo sapiens with 19 samples.

Results

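TLR1, TLR2, TLR3, TLR4, TLR8, LY96, CD14, NOD2 and NLRC4 code for Toll-like receptors, the 2 co-receptor proteins of the LPS sensor, and NOD-like receptors. They were followed in THP-1 cells with and without vitamin C (vit C). The genes were chosen by name, as the spots whose gene name on the array equalled a name of this list. No cutoff on a measured value was applied, but the list was made with earlier results of these data known. The study names NOD2, TLR3, LY96 and NLRC4 as higher at 48 h, so the share of the list that passed is not that of an unselected list. They are 9 of the 31033 gene names on the array. THP-1 is a monocytic line grown from 1 case of human leukemia. All cells in the study, the controls included, were differentiated with 30 nM PMA, a phorbol ester that turns them into adherent macrophage-like cells, for 16 to 18 h and then rested. Flasks were afterwards left untreated (UT) or received 0.1 mM vit C, and RNA was taken 8, 24, 48 and 96 h later. The UT cells were measured on 2, 3, 2 and 3 arrays at these 4 time points and the vit C-treated cells on 3, 2, 2 and 2, after RNA of lower integrity was set aside by the authors. Replicates were separate flasks of the same line, so the tests measure the spread between flasks of 1 cell line and not between donors.

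Toll-like receptors are membrane proteins that recognise microbial molecules and start NF-kB and interferon signalling. TLR1 pairs with TLR2 at the cell surface to bind bacterial lipopeptides, TLR4 binds lipopolysaccharide (LPS) together with MD-2, the product of LY96, after CD14 has handed the LPS over, and TLR3 and TLR8 bind double-stranded and single-stranded RNA in endosomes. NOD2 senses a fragment of bacterial peptidoglycan in the cytosol, and NLRC4 forms an inflammasome that activates caspase-1 after NAIP proteins have detected flagellin or secretion system proteins. CD14 and TLR8 are known to be abundant in monocytes and macrophages, and PU.1 and C/EBP proteins are known as regulators of many monocyte genes.

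The level of a gene is the brightness of a 60-base probe, given as the log2 signal minus the log2 of the array's 75th percentile. A level of 0 is therefore the 75th percentile of the array, and a difference of 1 is a doubling. Probes differ in how brightly they bind, so levels are compared between groups and not between genes. TLR4 has 3 probes, numbered from the brightest, and each of the other genes has 1. A few probes are printed to show what was read, in the case of TLR4 its second probe. The capitals mark the first reading frame found without a stop codon, of 20 codons in TLR4, CD14 and TLR3 and 19 in NLRC4. That frame was not checked against a transcript and need not be the one that is translated.
TLR4: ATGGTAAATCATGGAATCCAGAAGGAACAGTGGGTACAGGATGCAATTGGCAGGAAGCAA
CD14: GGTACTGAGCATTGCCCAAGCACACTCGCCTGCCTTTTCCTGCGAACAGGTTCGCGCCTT
TLR3: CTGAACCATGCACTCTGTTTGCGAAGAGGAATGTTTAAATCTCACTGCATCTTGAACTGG
NLRC4: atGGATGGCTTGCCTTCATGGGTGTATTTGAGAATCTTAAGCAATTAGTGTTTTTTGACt

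The 250 bases before the transcription start were listed in the RefSeq promoter table (GRCh38.p14) for 7 of the 9 genes, and LY96 and TLR1 were not matched. They are shown for TLR4, CD14, NLRC4 and NOD2, and not for TLR2, TLR3 and TLR8, which held no PU.1 core there. NOD2 and NLRC4 are shown by the most upstream of their listed starts, and each sequence runs 5′ to 3′ in the direction of the gene. Capitals mark the core of the PU.1 motif, GAGGAA or its reverse complement, and the C/EBP motif TTGCNNAA on either strand.
TLR4, chr9:117704153-117704402, plus strand: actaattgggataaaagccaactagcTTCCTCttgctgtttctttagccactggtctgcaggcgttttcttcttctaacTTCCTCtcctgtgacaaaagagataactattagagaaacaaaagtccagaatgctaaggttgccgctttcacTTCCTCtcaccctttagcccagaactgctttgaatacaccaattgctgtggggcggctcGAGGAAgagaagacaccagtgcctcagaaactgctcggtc
CD14, chr5:140633176-140633425, minus strand: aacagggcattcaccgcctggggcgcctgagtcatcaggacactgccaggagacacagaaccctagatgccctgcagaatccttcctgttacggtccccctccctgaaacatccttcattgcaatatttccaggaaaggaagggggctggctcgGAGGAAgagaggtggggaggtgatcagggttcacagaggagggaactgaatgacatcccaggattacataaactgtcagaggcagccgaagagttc
NLRC4, chr2:32265744-32265993, minus strand: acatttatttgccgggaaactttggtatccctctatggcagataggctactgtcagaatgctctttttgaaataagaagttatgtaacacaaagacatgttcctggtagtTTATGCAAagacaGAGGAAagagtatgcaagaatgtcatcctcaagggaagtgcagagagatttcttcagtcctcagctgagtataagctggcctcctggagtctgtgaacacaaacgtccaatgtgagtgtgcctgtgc
NOD2, chr16:50696698-50696947, plus strand: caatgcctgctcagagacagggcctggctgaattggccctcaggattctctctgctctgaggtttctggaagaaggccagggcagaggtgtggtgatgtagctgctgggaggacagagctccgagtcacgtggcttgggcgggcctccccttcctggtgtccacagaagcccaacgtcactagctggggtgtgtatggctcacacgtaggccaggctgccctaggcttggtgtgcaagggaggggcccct

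The PU.1 core was found 4 times before TLR4, once before CD14 and once before the printed start of NLRC4, and 3 of the 7 genes held it before any listed start. Of all 35116 listed promoters 23.6% held it in the same window. The C/EBP motif was found before TLR3, TLR8 and NLRC4 and in 9.1% of all promoters, and neither NOD2 start held either motif. An NF-kB motif (GGG, any 2 bases, TTTCC) and an IRF motif (GAAA, any 2 bases, GAAA) were found before none of the 7 genes on either strand, and in 1.7% and 3.0% of all promoters.

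The probes of 7 of the genes were well above background on all 19 arrays, that of TLR8 on 18 and that of TLR3 on 7. No spot was saturated, and 57.5% to 72.8% of all probes per array were well above background. The arrays came from 4 slides. Slide 1 held 8 UT arrays, with every UT array of 8, 24 and 48 h and 1 of 96 h. Slide 2 held the other 2 UT arrays of 96 h and 6 vit C arrays, slide 3 held 1 vit C array of 48 h, and slide 4, scanned on another day, held both vit C arrays of 96 h. No slide carried UT and vit C-treated cells of the same time point, so each vit C effect is also a difference between slides, while the UT course up to 48 h and the vit C course up to 24 h each ran within 1 slide. The vit C arrays of 96 h were also the brightest, with 75th percentiles of 787.6 and 903.5 against 290.2 to 625.6 on the other arrays. In these bulk samples, fewer cells expressing a gene and less RNA per cell cannot be told apart.

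A gene passed the test in limma at a log2 fold change of 1 or more in size and a q value, the p-value adjusted by Benjamini-Hochberg over all genes, of 0.05 or less. By this rule 0 of the 9 genes passed between vit C-treated and UT cells at 8 h, when 0.549% of all genes did, and 0 of 9 had an unadjusted p of 0.05 or less, beside 14.8% of all genes. By the t-test of the study's methods, as run here, 0 of 9 passed at 8 h, and 12 of all 25136 genes tested did. The study itself reported more genes at 8, 24 and 96 h, so this t-test did not give back its counts. At 24 h, 1 of 9 passed, TLR4, which was lower, beside 1.65% of all genes and 0.82% lower. At 48 h, 3 of 9 passed, LY96, NOD2 and NLRC4, all higher, beside 3.64% of all genes in either direction and 2.08% higher. At 96 h, 1 of 9 passed, NOD2, which was higher, beside 12.8% of all genes and 2.72% higher. The median log2 fold change of the 9 genes was -0.05, 0.16, 0.95 and 0.01 at 8, 24, 48 and 96 h, against -0.05, -0.13, -0.02 and -0.15 over all genes. At 96 h the split of all genes that passed, 716 higher and 2659 lower, became 560 and 440 under quantile normalization. Their count at 96 h, 3375, also became 1387, 1174 and 5992 without UT replicate 1, 2 and 3. With the spread taken from the compared groups alone, 0 of 9 passed at 24, 48 and 96 h, where 199, 0 and 3 of all genes passed in limma and 0, 3 and 0 by the t-test of the study's methods, so that these counts say nothing about the 9 genes. In the limma fit over all groups 4, 6 and 3 of 9 had an unadjusted p of 0.05 or less by any probe at these times, beside 20.9%, 18.7% and 33% of all genes.

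**Figure D1:**
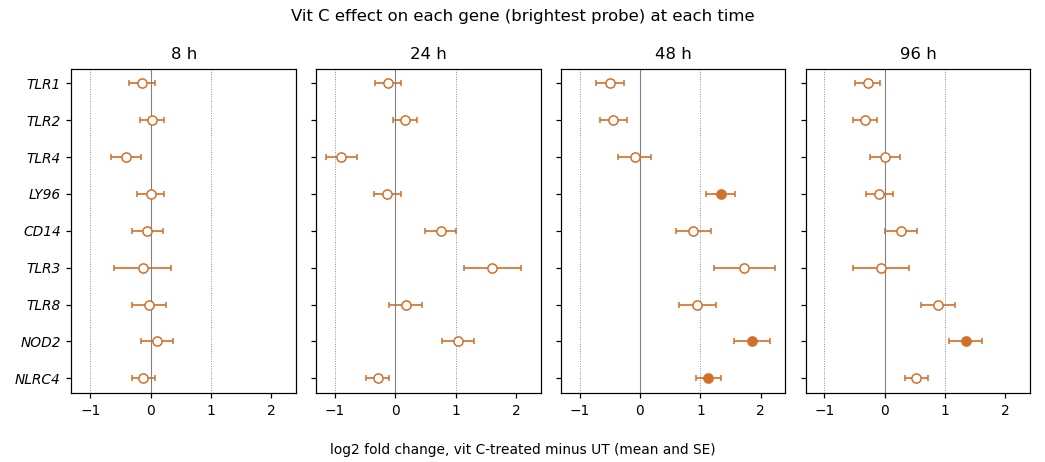
The log2 fold change (x axis, vit C-treated minus UT, with its standard error) of each gene by its brightest probe at the 4 time points, with filled points for those that passed the test and dotted lines at -1 and 1. NOD2 lay at 1.85 at 48 h and 1.34 at 96 h, LY96 and NLRC4 passed at 48 h, and TLR4 passed at 24 h by another of its probes, so its point is open.

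NOD2, the sensor of peptidoglycan fragments, rose over time in both arms and lay higher in vit C-treated than in UT cells from 24 h on. At 8 h its levels were -2.64 and -2.51 in UT cells and -2.6, -2.12 and -2.67 in vit C-treated cells, and the groups overlapped. At 24 h they were -2.13, -2.21 and -2.48 in UT cells against -1.29 and -1.18 in vit C-treated cells. The groups no longer overlapped, with a log2 fold change of 1.04 (SE 0.27) that missed the threshold (q = 0.073). At 48 h the levels were -1.56 and -1.38 in UT cells and 0.42 and 0.33 in vit C-treated cells, a log2 fold change of 1.85 (SE 0.3, 3.6-fold, q = 0.00431). At 96 h they were -0.16, 0.18 and 0.95 in UT cells and 1.67 and 1.65 in vit C-treated cells, a log2 fold change of 1.34 (SE 0.27, 2.53-fold, q = 0.0109). Every vit C array lay above every UT array at 24, 48 and 96 h.

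NOD2 was also the gene of the 9 that passed for the average of the 4 vit C effects, at a log2 fold change of 1.08 (SE 0.14, 2.12-fold, q = 0.000248), beside 3.46% of all genes. CD14 (0.46, q = 0.0364) and TLR8 (0.49, q = 0.0373) were below the fold threshold in that average. The 48 h call of NOD2 held with each of the 4 arrays left out in turn, at 1.76 to 1.93. Its 96 h call was lost without vit C replicate 1 or 2, at log2 fold changes of 1.33 and 1.35. In these fits 1 vit C array of 96 h was left and fewer of all genes passed. Slide as a fixed term was fitted on slides 1 and 2 only, and rests on UT 96 h arrays alone for the difference between them. The vit C effect on NOD2 was then -0.62, 0.31 and 1.16 at 8, 24 and 48 h. It did not pass at 8 or 24 h, and the 48 h value rests on 1 vit C array, as the other was on slide 3. At 96 h slide and treatment cannot be told apart.

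Against 8 h, NOD2 was higher at 96 h in UT cells by a log2 fold change of 2.9 (SE 0.27, 7.45-fold, q = 3.3e-06) and in vit C-treated cells by 4.13 (SE 0.27, 17.5-fold, q = 8.69e-08). At 24 h it had already passed in vit C-treated cells (1.23, SE 0.27, q = 0.0126) but not in UT cells (0.3, SE 0.27, q = 0.57). That 24 h call was lost, by q values of 0.0505 to 0.106, without vit C replicate 1 or 3 of 8 h and without either vit C array of 24 h, and at 0.83 under normexp background correction. In ascending order of the group means, NOD2 ran from UT 8 h (-2.58) through vit C 8 h (-2.47), UT 24 h (-2.27), UT 48 h (-1.47), vit C 24 h (-1.23), UT 96 h (0.32) and vit C 48 h (0.38) to vit C 96 h (1.66). Neighbours overlapped at 8 h, between vit C 8 h and UT 24 h, and between UT 96 h and vit C 48 h.

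NLRC4, the inflammasome receptor, had its lowest mean at 24 h in vit C-treated cells and at 48 h in UT cells, and its highest at 96 h in both. At 8 h its levels were 0.51 and 0.66 in UT cells and 0.55, 0.36 and 0.5 in vit C-treated cells, and the groups overlapped. At 24 h they were -0.14, -0.04 and -0.08 in UT cells and -0.57 and -0.19 in vit C-treated cells, a log2 fold change of -0.29 (SE 0.19, q = 0.391) without overlap. At 48 h the UT arrays stayed low, at -0.42 and -0.2, while the vit C arrays stood at 0.87 and 0.77. The log2 fold change was 1.13 (SE 0.21, 2.19-fold, q = 0.00975) and the groups did not overlap. At 96 h the levels were 1.95, 1.42 and 1.62 in UT cells and 2.14 and 2.23 in vit C-treated cells, again without overlap but with a log2 fold change of 0.52 (SE 0.19, q = 0.0809).

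From 8 to 96 h NLRC4 rose in UT cells by a log2 fold change of 1.08 (SE 0.19, q = 0.000853) and in vit C-treated cells by 1.71 (SE 0.19, q = 1.17e-05). Without UT 96 h replicate 1 the first of these was 0.93 and no longer passed. From 8 to 24 h the change in vit C-treated cells, -0.85 (SE 0.19, q = 0.0133), was below the fold threshold, and it passed at -1.04 without vit C 24 h replicate 2. The 48 h call of NLRC4 was lost without UT replicate 1 (1.02), vit C replicate 1 (1.08) or vit C replicate 2 (1.18). In these fits 1 array was left in a group and fewer of all genes passed. With slide as a fixed term the vit C effect on NLRC4 was 0.32, 0.14 and 1.61 at 8, 24 and 48 h, the last with 1 vit C array.

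LY96, whose product MD-2 holds the lipid A part of LPS beside TLR4, behaved in UT cells as a late gene, with levels of 1.28 and 1.72 at 8 h, 1.93, 1.71 and 1.57 at 24 h and 1.27 and 1.28 at 48 h. At 96 h its UT levels were 3.73, 3.09 and 3.33. In vit C-treated cells it was at 1.42, 1.55 and 1.53 at 8 h and at 1.43 and 1.78 at 24 h, and stood at 2.75 and 2.47 at 48 h and 3.34 and 3.24 at 96 h. Only the 48 h groups did not overlap, with vit C-treated cells higher by a log2 fold change of 1.34 (SE 0.24, 2.53-fold, q = 0.00866). At 96 h the difference was -0.09 (SE 0.22, q = 0.823).

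The rise of LY96 from 8 to 96 h passed in both arms, with log2 fold changes of 1.88 (SE 0.22, q = 2.48e-05) in UT and 1.79 (SE 0.22, q = 3.14e-05) in vit C-treated cells. Its 48 h call held without vit C replicate 2 and was lost without UT replicate 1 (1.33), UT replicate 2 (1.34) or vit C replicate 1 (1.2). In these fits 1 array was left in a group and fewer of all genes passed. With slide as a fixed term the vit C effect on LY96 was 0.52, 0.4 and 2 at 8, 24 and 48 h, the last with 1 vit C array.

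CD14, the LPS co-receptor that marks monocytes, had the largest change over time among the 9 genes. Its UT levels were 0.72 and 0.64 at 8 h, 2.92, 2.98 and 3.18 at 24 h, 4.88 and 4.76 at 48 h and 5.16, 5.1 and 4.46 at 96 h. Its vit C levels were 0.71, 0.42 and 0.76 at 8 h, 4.21 and 3.35 at 24 h, 5.76 and 5.63 at 48 h and 5.07 and 5.29 at 96 h. The vit C arrays lay above all UT arrays at 24 and 48 h, and the groups overlapped at 8 and 96 h. The log2 fold changes of 0.75 (SE 0.26, q = 0.164) at 24 h and 0.88 (SE 0.29, q = 0.118) at 48 h did not pass. The 24 h value rested on single arrays, with a log2 fold change of 0.32 without vit C replicate 1 and 1.18 without vit C replicate 2, neither of which passed.

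Over time CD14 passed in every comparison. In UT cells it rose by a log2 fold change of 2.34 (SE 0.26, 5.08-fold, q = 0.000214) from 8 to 24 h, and it was the only 1 of the 9 genes to pass there, beside 2.65% of all genes. From 8 to 96 h it rose by 4.22 (SE 0.26, 18.7-fold, q = 8.3e-08). In vit C-treated cells it rose by 3.15 (SE 0.26, 8.86-fold, q = 7.52e-06) from 8 to 24 h and by 4.55 (SE 0.26, 23.4-fold, q = 2.6e-08) from 8 to 96 h. In order of the group means the last neighbours, UT 48 h (4.82), UT 96 h (4.91) and vit C 96 h (5.18), overlapped, and vit C 48 h (5.69) stood above all other groups.

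**Figure D2:**
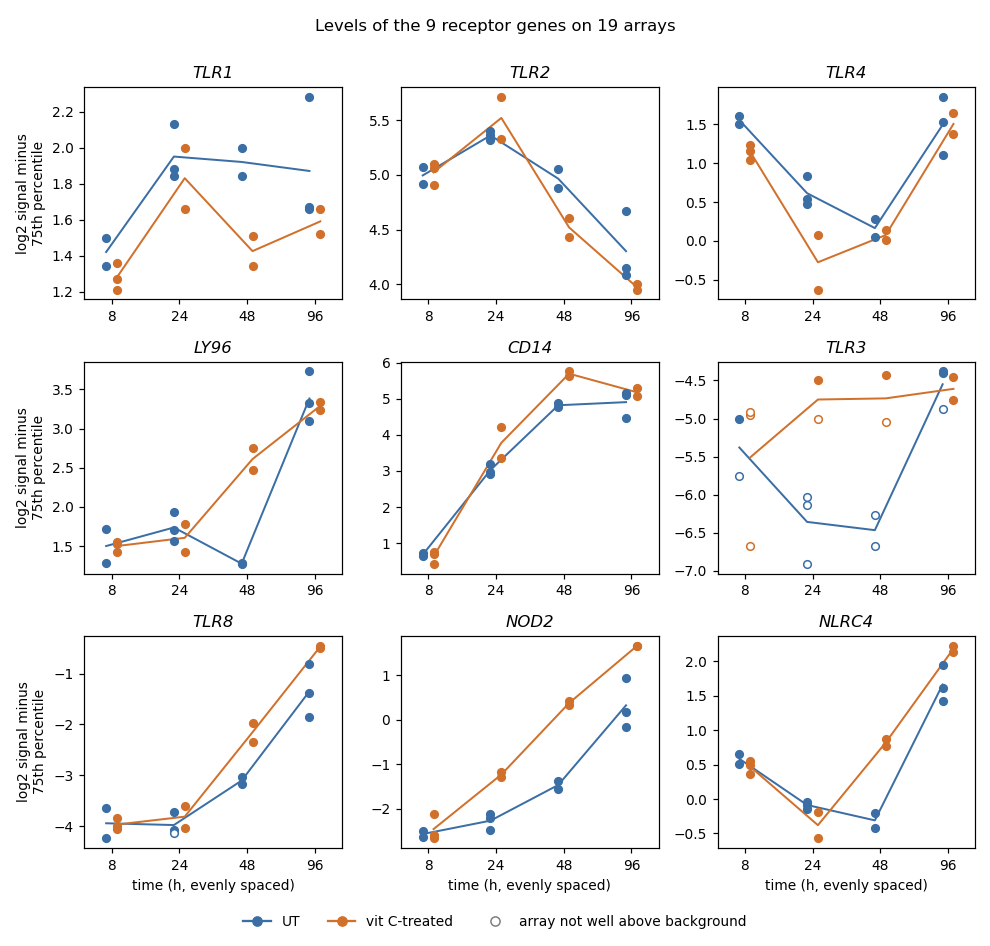
Levels (y axis, log2 signal minus the 75th percentile, a scale of its own in each panel) of the 9 genes by their brightest probe on each of the 19 arrays against time (x axis, h, evenly spaced), with lines through the group means and open points for arrays not well above background. NOD2 and NLRC4 of vit C-treated cells at 48 h (means 0.38 and 0.82) lie above UT cells (-1.47 and -0.31), and the TLR4 means are lower at 24 and 48 h than at 8 h in both arms.

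TLR4, the signalling chain of the LPS receptor, had its lowest mean at 48 h in UT cells by each of its 3 probes. In vit C-treated cells the lowest mean was at 24 h by probes 1 and 3 and at 48 h by probe 2. Its brightest probe read 1.5 and 1.61 in UT cells at 8 h, 0.83, 0.47 and 0.54 at 24 h, 0.05 and 0.28 at 48 h and 1.53, 1.1 and 1.85 at 96 h. In vit C-treated cells it read 1.16, 1.24 and 1.04 at 8 h, -0.63 and 0.08 at 24 h, 0.14 and 0.01 at 48 h and 1.37 and 1.64 at 96 h. At 8 and 24 h all vit C arrays lay below all UT arrays, and at 48 and 96 h the groups overlapped. The 24 h difference was -0.89 (SE 0.25, q = 0.0874) by this probe and -0.5 (SE 0.21, q = 0.252) by probe 2. It was -1.51 (SE 0.32, 2.85-fold lower, q = 0.0298) by probe 3, which alone passed.

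Probe 3 of TLR4 read -2.04, -1.67 and -1.98 in UT cells and -3.5 and -3.32 in vit C-treated cells at 24 h. The call of TLR4 was lost with any 1 of the 5 arrays of 24 h left out, at log2 fold changes of -1.6 to -1.4, where fewer of all genes passed too (q = 0.0573 to 0.0894 without a UT array). It was also lost as a mean of the 3 probes (-0.97, q = 0.0453), being below the fold threshold. From 8 to 24 h TLR4 fell in vit C-treated cells by 1.42 on the log2 scale by the brightest probe (SE 0.25, q = 0.00263) and by 1.48 by probe 3 (SE 0.32, q = 0.0103), both measured within slide 2. In UT cells the change of the brightest probe from 8 to 24 h, -0.94 (SE 0.25), missed the threshold (q = 0.0566). Between 8 and 96 h the probes of TLR4 went in opposite directions in UT cells, which removed it from that test.

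**Figure D3:**
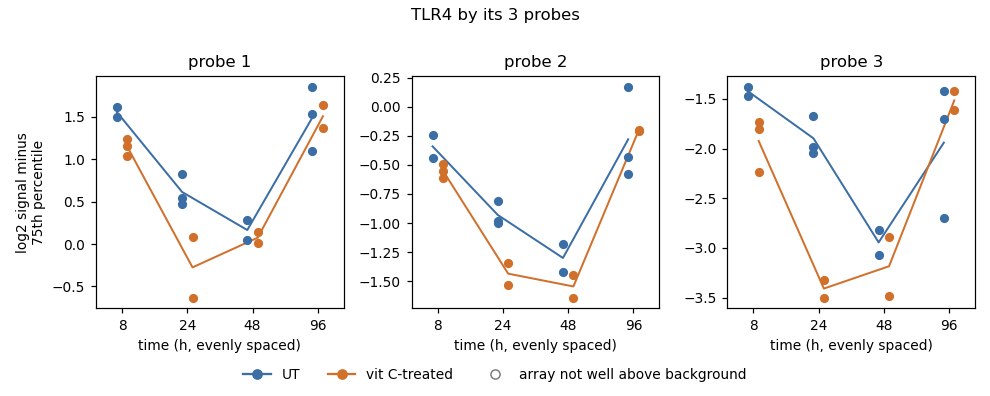
Levels of TLR4 (y axis, log2 signal minus the 75th percentile, a scale of its own in each panel) by each of its 3 probes against time (x axis, h), with 1 point per array and lines through the group means. All 3 probes have lower means at 24 and 48 h than at 8 h in both arms, and vit C arrays lie below the UT arrays at 24 h by each probe.

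TLR2, the lipopeptide receptor that pairs with TLR1 or TLR6, was the gene of the 9 that passed as lower at 96 than at 8 h, and did so in vit C-treated cells. Its UT levels were 4.92 and 5.07 at 8 h, 5.36, 5.4 and 5.32 at 24 h, 4.88 and 5.05 at 48 h and 4.15, 4.09 and 4.67 at 96 h. Its vit C levels were 5.1, 4.91 and 5.06 at 8 h, 5.33 and 5.71 at 24 h, 4.61 and 4.43 at 48 h and 4 and 3.95 at 96 h. The vit C arrays lay below the UT arrays at 48 and 96 h, and the groups overlapped before. Neither the difference of -0.44 (SE 0.22, q = 0.342) at 48 h nor that of -0.33 (SE 0.2, q = 0.298) at 96 h passed. The fall from 8 to 96 h passed in vit C-treated cells, by 1.05 on the log2 scale (SE 0.2, 2.07-fold, q = 0.00128), while in UT cells the change of -0.69 (SE 0.2, q = 0.0228) was below the fold threshold. Under quantile normalization the change in vit C-treated cells was -0.95 and did not pass. That change cannot be told apart from the difference between slides 2 and 4, scanned on different days.

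TLR1, the partner of TLR2, ranged from 1.21 to 2.28 over all 19 arrays. It was the gene of the 9 that did not pass the test for any difference among the 8 groups (F test in limma, q = 0.0591), whereas the other 8 passed, as did 49.5% of all genes. Its means at 8, 24, 48 and 96 h were 1.42, 1.95, 1.92 and 1.87 in UT cells and 1.28, 1.83, 1.42 and 1.59 with vit C. The groups overlapped at each time point but 48 h, where vit C arrays of 1.34 and 1.51 lay below UT arrays of 1.84 and 2 (log2 fold change -0.49, SE 0.23, q = 0.309).

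TLR8, the receptor for single-stranded RNA, was late like LY96. Its UT levels were -3.65 and -4.24 at 8 h, -4.07, -3.73 and -4.14 at 24 h, -3.18 and -3.03 at 48 h and -1.39, -1.85 and -0.81 at 96 h. Its vit C levels were -3.85, -4 and -4.06 at 8 h, -4.03 and -3.6 at 24 h, -2.34 and -1.97 at 48 h and -0.49 and -0.45 at 96 h. The vit C arrays lay above the UT arrays at 48 and 96 h, and the groups overlapped at 8 and 24 h. The differences were 0.95 (SE 0.31, q = 0.116) at 48 h and 0.88 (SE 0.28, q = 0.05) at 96 h, and neither reached a log2 fold change of 1. Without UT 96 h replicate 3, the UT array of that time with the highest TLR8 level, the 96 h difference was 1.15 and passed (q = 0.00917). Of all genes 5992 of 26852 passed in that fit, against 3375 of 26337 with all arrays. From 8 to 96 h TLR8 rose by a log2 fold change of 2.6 (SE 0.28, 6.04-fold, q = 1.22e-05) in UT and by 3.5 (SE 0.28, 11.3-fold, q = 5.54e-07) in vit C-treated cells.

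TLR3, the receptor for double-stranded RNA, was near background. No array of UT cells at 24 or 48 h, nor of vit C-treated cells at 8 h, read it well above background. Both vit C arrays of 96 h did (-4.46 and -4.76), as did UT arrays of 96 h at -4.38 and -4.4, 1 UT array of 8 h, and 1 vit C array each of 24 and 48 h. At 24 h the vit C arrays read -5.01 and -4.49 and the UT arrays, none of them well above background, -6.03, -6.91 and -6.13. The arrays did not overlap at 24 or 48 h, and no fold is given, since no UT array read TLR3 well above background there.

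Over the time course both LPS co-receptors, both cytosolic sensors and TLR8 went up. From 8 to 96 h, 5 of the 9 passed in UT cells, LY96, CD14, TLR8, NOD2 and NLRC4, all higher, beside 16.1% of all genes and 8.9% higher. In vit C-treated cells 6 of 9 passed, these 5 higher and TLR2 lower, beside 28.9% of all genes, 10.9% higher and 18% lower. This comparison cannot be told apart from the difference between slides 2 and 4, scanned on different days. Its split of all genes that passed, 2964 higher and 4878 lower, became 2800 and 2410 under quantile normalization. From 8 to 24 h, 3 of 9 passed in vit C-treated cells, CD14 and NOD2 higher and TLR4 lower, beside 5.61% of all genes. The median log2 fold change of the 9 genes from 8 to 96 h was 1.08 in UT and 1.71 in vit C-treated cells, where it was 0.02 and -0.17 over all genes. On slide 1 alone, in a comparison added after the data had been seen, the same 5 genes passed in UT cells with 1 array of 96 h against both of 8 h, beside 3359 of 26554 genes, with the spread taken from the UT 8, 24 and 48 h arrays. With only the UT 8 and 96 h arrays in the fit NLRC4 no longer passed (q = 0.122), and with only the vit C 8 and 24 h arrays NOD2 did not (q = 0.05 after rounding).

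**Figure D4:**
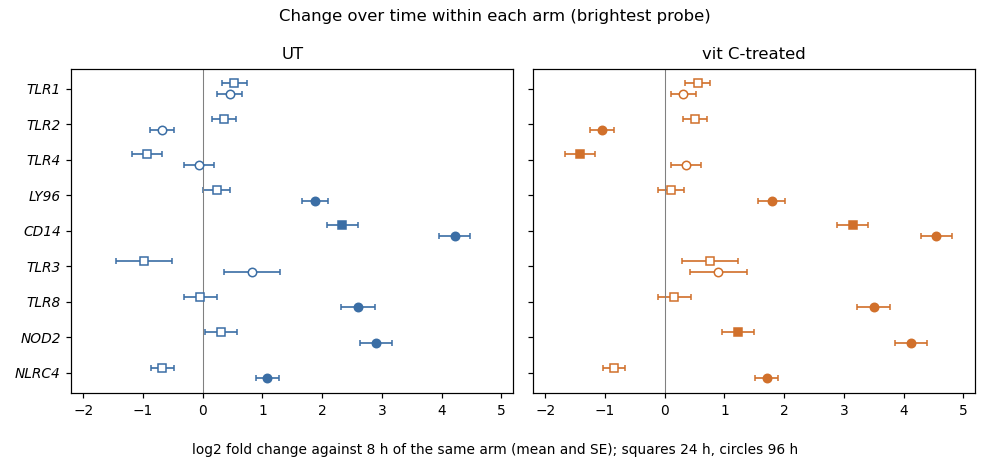
The log2 fold change (x axis, with its standard error) of each gene by its brightest probe from 8 to 24 h (squares) and from 8 to 96 h (circles) in UT (left) and vit C-treated cells (right), with filled symbols for those that passed the test. CD14 passed in all 4 comparisons, at 2.34, 4.22, 3.15 and 4.55, and TLR2 passed as lower in vit C-treated cells at 96 h.

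At 48 h the UT and vit C arrays did not overlap for 8 of the 9 genes, TLR4 excepted, where 50.8% of all genes did not. The counts at 8, 24 and 96 h were 1, 5 and 4 of 9, beside 39.1%, 30.2% and 36.9%. That the vit C effect differed between time points did not pass for any of the 9 genes (F test, q = 0.0598 for NLRC4, 0.0841 for LY96 and 0.136 for NOD2), beside 1.36% of all genes. An unadjusted p of 0.05 or less by any probe was seen for 5 of 9 and for 24.9% of all genes. Under 7 of the other processing settings 1 or 2 of the 9 passed, NLRC4 in each. Of all genes 371 to 1385 passed in those settings, against 422 in the main fit.

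Over the 8 group means, which share arrays and scaling, TLR8 and NOD2 ran closest (Pearson r = 0.96), followed by LY96 and TLR8 (0.92), while TLR2 ran opposite to TLR8 (-0.94) and NLRC4 (-0.93). For the 6 genes measured on every array that differed among the groups, the most alike of 9991 genes over the 8 means were CACNA2D3 and SYTL3 for CD14 (r = 0.995 and 0.994), BYSL and SNORD35B for TLR2 (0.992 and 0.99) and ALDH2 and MAP4K1 for NLRC4 (0.991 and 0.988). They were MEGF9 and TRIM36 for NOD2 (0.986 and 0.983), ASGR2 and PCM1 for TLR4 (0.987 and 0.981) and PKD2L1 for LY96 (0.977).

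Of the other genes of the pathway, from the remaining TLR and NLR receptors over adaptors, kinases and transcription factors to negative regulators and target genes, few passed between the arms. The counts were 0 of 93, 1 of 91, 2 of 93 and 9 of 95 genes tested at 8, 24, 48 and 96 h, beside the 0.549%, 1.65%, 3.64% and 12.8% of all genes. An unadjusted p of 0.05 or less by any probe was seen for 20, 21, 22 and 31 of them, beside 14.8%, 20.9%, 18.7% and 33% of all genes. PTGS2, the inducible cyclooxygenase and a target of these receptors, was higher in vit C-treated cells at 48 h (log2 fold change 2.05, SE 0.36, q = 0.00756) and 96 h (1.52, SE 0.33, q = 0.0156). At 96 h the transcription factor IRF8 was higher (1.27, SE 0.34, q = 0.0348), and ATF3, a repressor of TLR target genes, was lower (-1.77, SE 0.2, q = 0.000144), as was the inflammasome sensor NLRP1 (-1.44, SE 0.38, q = 0.0336). HSP90B1, the chaperone of TLR proteins, passed as higher by a probe at 1.42 but stood at 0.25 (q = 0.557) by its brightest. Of 14 target genes such as cytokines and chemokines, 5 passed as higher from 8 to 24 h in UT cells and 8 in vit C-treated cells, where 1.37% and 2.95% of all genes passed as higher. From 8 to 96 h, 1 passed as higher and 6 as lower in UT cells, and 3 as higher and 5 as lower in vit C-treated cells, beside 16.1% and 28.9% of all genes in either direction.

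Of 13 monocyte and macrophage markers on the array 11 were well above background on all 19 arrays, among them CD68, CSF1R and SPI1, the gene of PU.1, and MRC1 on none. Among markers of T, B and NK cells, fibroblasts and epithelium, CD3E, CD79A and PAX5 were well above background on all arrays and CD3D, KLRD1, COL1A2, EPCAM and KRT5 on none. The summed signal, in multiples of the 75th percentile, ranged over all arrays from 475 to 701 for the macrophage and 0.175 to 0.338 for the T cell markers. At 24 h, beside the lower TLR4, the macrophage sum was 629 to 701 in UT and 560 to 656 in vit C-treated cells, and 12 of the 13 markers had a lower mean in vit C-treated cells, with a median log2 fold change of -0.48 against -0.13 over all genes. The NK cell sum then was 0.135 to 0.25 and 0.383 to 0.44, and the fibroblast and epithelial sum 0.0856 to 0.0945 and 0.103 to 0.127, both without overlap. At 48 h, beside the higher NOD2, LY96 and NLRC4, the macrophage markers ITGAM (-1.17, q = 0.00322) and MSR1 (-1.1, q = 0.0449) were lower in vit C-treated cells, and the matrix gene DCN (2.34, q = 0.00833) and the NK cell gene NCR1 (2.13, q = 0.0167) were higher. The summed signal of the 13 macrophage markers was 600 to 610 in UT and 551 to 598 in vit C-treated cells at 48 h. That of the 5 fibroblast and epithelial markers was 0.424 to 0.53 and 2.23 to 2.27, and that of the 5 NK cell markers 3.79 to 4.06 and 2.17 to 2.7. The sum of 4 B cell markers, CD79A, PAX5, MS4A1 and BLK, was 1.62 to 2.38 in UT and 3.43 to 4.74 in vit C-treated cells at 48 h, without overlap, and 1.11 to 1.76 and 3.25 to 3.68 at 8 h. At 24 h it was 1.73 to 2.73 and 2.22 to 4.49, and at 96 h 1.26 to 3.42 and 1.14 to 1.33. At 96 h, beside the higher NOD2, LYZ (1.17, q = 0.0422) and DCN (2.48, q = 0.0019) were higher and MSR1 (-1.07, q = 0.0256) lower in vit C-treated cells. The sums at 96 h were 524 to 526 and 525 to 569 for macrophage markers, 0.707 to 1.3 and 4.33 to 4.92 for fibroblast and epithelial markers, and 2.4 to 2.61 and 2.75 to 3.18 for NK cell markers. Their part in the results on the 9 genes was not tested.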

How the data were processed

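Each of 19 RNA samples was hybridised to an Agilent one-colour array, and the samples were grouped by the treatment and time in their labels. For the intensity values, the authors extracted spots with Agilent Feature Extraction, with spatial and multiplicative detrending, before they deposited them (version 10.5.1.1 per the file headers, another in the methods). For the log2 values, the authors shifted each array to its 75th percentile in GeneSpring and deposited these in the series matrix, used here as an alternative. Here the processed signals of 51538 spots that are not controls were taken to log2, averaged to 50238 probes and shifted by each array's 75th percentile.

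A model of 8 group means was fitted with limma 3.58.1 (lmFit, eBayes, 2-sided) in R 4.3.3 (with version 1.17.8 of the data.table package). Python 3.11.15 with matplotlib 3.10.9 made the plots. The methods' t-test is an alternative here because groups hold 2 or 3 arrays, whose number limits the precision throughout. Genes whose probes disagreed in direction were removed before adjustment, as in the methods. A gene's value is that of its brightest probe, and a gene passed by any probe. All 9 genes are named, other pathway genes only where the probe that passed was well above background on every array compared, and the 2 genes most like a member by Pearson r. A gene that this rule names is not reported here, and the B cell sum is over 4 genes, chosen after the data were seen. The members, lists and tests were chosen with earlier results of these data known, and the gene lists come from general knowledge. The array's own gene names were kept, of which 15590 are current symbols. Alternatives were other normalizations, filters, slide and replicate blocks, the series matrix, and each array left out.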

Additional observations from a re-analysis of the deposited data

How the results depend on the processing

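With groups of 2 or 3 arrays the calls depend on a spread pooled over all 8 groups. None of the 9 genes passed by the methods' t-test at any time point or in UT cells over time, nor from 8 to 24 h in vit C-treated cells (0 called in each), while 6 passed from 8 to 96 h in vit C-treated cells. Over all genes this test called 12, 0, 3 and 0 at the 4 time points, 0 and 285 in UT cells at 24 and 96 h, and 0 and 7378 in vit C-treated cells, so its counts of members followed those of all genes. A fit of only the groups compared called 0 at 24, 48 and 96 h, and lost NLRC4 from 8 to 96 h in UT cells (4 called) and NOD2 from 8 to 24 h in vit C-treated cells (2 called). With slide as a fixed term, on slides 1 and 2 alone, 0 were called at 8 and 24 h, beside 0 of 25245 and 2 of 25414 genes tested. So few passed that these counts say nothing about the 9 genes. At 48 h that fit held 1 vit C array, so no call is taken from it. It could not estimate the 96 h vit C effect, the average or the difference between time points. Nor could it estimate the change from 8 to 96 h in vit C-treated cells. At 24 h, 0 were called under normexp background correction and gene means of probes, beside 247 and 368 of all genes, where the main fit called 432. Without any 1 UT array of 24 h 0 were called, beside 226 to 270 of all genes. Under quantile normalization and under an intensity trend 2 were called, beside 558 in each. At 96 h, 1, 1 and 2 were called without UT replicate 1, 2 and 3, beside 1387, 1174 and 5992 of all genes, where the main fit called 3375. Without an array of 48 h, or a vit C array of 96 h, 1 array was left in a group. Fewer of all genes passed in each of those fits, so a lost call there is not particular to a member. The average effect lost NOD2 under normexp (0 called, log2 fold change 0.82). The difference between time points was called for 0 of the 9 in the main fit, beside 422 of all genes. It was called for 1 under quantile normalization and the percentile over detected probes, beside 681 and 446. Dim probes left out and gene means of probes also gave 1, beside 511 and 371. Under normexp, a floor of 20 and an intensity trend it was called for 2, beside 696, 1385 and 630. Without UT 96 h replicate 1 it was called for 2, LY96 and NLRC4, beside 1073 of all genes. Without UT 96 h replicate 3 it was called for 3, TLR4, NOD2 and NLRC4, beside 1264, and without replicate 2 for 0, beside 329. Normexp moved the median of all genes at 96 h from -0.15 to -0.4. Leaving out an array changed the counts from 8 to 96 h to 4 to 5 in UT cells, where NLRC4 was lost, and left them at 6 in vit C-treated cells. Opposing probes kept, the slide as a random block and the series matrix values changed no call of a member.

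The replicate numbers did not pair the samples (r of the deviations from -0.34 to 0.13 over 8 pairs). With the replicate block, 0, 1, 4 and 1 of the 9 genes were called at 8, 24, 48 and 96 h, beside 48, 426, 781 and 1203 of all genes. TLR4 was lost at 24 h at a nearly unchanged log2 fold change of probe 3 (-1.49, q = 0.0604). TLR3 was added at 24 and 48 h, where no UT array read it well above background, and took the place of TLR2 (-0.99) from 8 to 96 h in vit C-treated cells, where no array of 8 h did, so no fold is given.

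Changes of sign concerned values that did not pass. Those of TLR3 are differences between readings near background, where the sign of a difference is not a measurement, and are no folds. At 8 h, TLR3 became 0.16 and TLR8 0.02 under quantile normalization, TLR3 0.14 under normexp, TLR8 0.02 under the percentile over detected probes and TLR2 -0.03 under the replicate block, and with slide as a fixed term TLR2 was -0.2, CD14 0.33, TLR3 0.13, NOD2 -0.62 and NLRC4 0.32. At 24 h, TLR3 became -0.13 and TLR8 -0.17 under normexp, and TLR2 -0.07, LY96 0.4 and NLRC4 0.14 with slide as a fixed term, which gave 0.03 for TLR4 at 48 h. At 96 h, LY96 was 0.03 under quantile normalization and 0.04 under normexp, and TLR3 0.03 under the percentile over detected probes and 0.11 under the replicate block. The average effect on TLR3 was -0.13 under normexp and -0.01 under the floor. Under normexp TLR3 was 0.29 and TLR8 0.23 from 8 to 24 h in UT cells, and TLR3 -0.56 from 8 to 96 h in vit C-treated cells. With an array left out, the 8 h effect spanned -0.04 to 0.1 for TLR2, -0.51 to 0.45 for TLR3, -0.32 to 0.27 for TLR8, -0.12 to 0.05 for CD14 and -0.06 to 0.21 for NOD2. The 24 h effect spanned -0.29 to 0.05 for TLR1, -0.02 to 0.35 for TLR2, -0.3 to 0.05 for LY96 and -0.04 to 0.38 for TLR8, that of 48 h -0.2 to 0.02 for TLR4, and that of 96 h -0.24 to 0.08 for LY96, -0.22 to 0.09 for TLR3 and -0.18 to 0.19 for TLR4. Over time it spanned -0.33 to 0.26 for TLR8 from 8 to 24 h and -0.24 to 0.13 for TLR4 from 8 to 96 h in UT cells, and -0.07 to 0.28 for LY96 and -0.05 to 0.37 for TLR8 from 8 to 24 h in vit C-treated cells. The cause was not tested. TLR3, and TLR8 up to 24 h, were close to background, which limits what their differences can show.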
